A study of Mus musculus with 12 samples.

Results

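The glutathione and antioxidant system of a mouse collecting duct cell line was followed through 43 genes, picked by gene symbol: the transcription factor NRF2 (Nfe2l2) and its inhibitor Keap1, 4 enzymes known as NRF2 targets, 4 genes of glutathione synthesis and recycling, 5 of the thioredoxin branch, 5 glutathione peroxidases, the glutathione transferases, and 3 enzymes of the pentose phosphate pathway. The 43 genes were chosen with earlier results of these data known. Their symbols held 44 of the 48034 gene records in the expression table, because Gstp1 has 2 records, and 21 of the 44 were transferases. RNA came from IMCD3 cells, a line derived from the mouse inner medullary collecting duct, in the subclone 53a, which is 1 clone. In these cells, as known of the study, mifepristone induces a mutant transcription factor that blocks the normal one, a regulator of kidney tubule genes. All 4 groups carry the inducible mutant: they received vehicle, vehicle plus 100 mM NaCl, mifepristone, or mifepristone plus 100 mM NaCl, with 3 libraries (A, B and C) in each group. Cells without the mutant were not analysed here, so the drug and the mutant cannot be told apart. The labels do not say whether the 3 libraries of a group were separate cultures, so the p-values rest on differences among libraries that may be technical replicates.

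NRF2 is held down by KEAP1, which marks it for degradation; oxidants and electrophiles modify KEAP1, and NRF2 then enters the nucleus and binds antioxidant response elements with a small MAF protein. Its known targets make and recycle glutathione, couple it to electrophiles, reduce peroxides and quinones, and supply the NADPH that these steps use. NRF2 is controlled mainly at the protein level, so its transcript is not a readout of its activity. Cells of the inner medulla live in high and changing salt, and collecting duct cells answer added NaCl with changes in many transcripts.

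Expression is given as FPKM (fragments per kilobase of transcript and per 1000000 fragments) from the authors' deposited table. The deposited values were already scaled between libraries by median ratios, so they are not strictly per mapped fragment of each library. Between 41940955 and 49270776 reads assigned to genes were recovered per library. The limma fit took in the 14044 genes with 3 or more libraries at FPKM 1 or above, and a call in it is a Benjamini-Hochberg adjusted p under 0.05. Fold changes are differences of log2(FPKM + 0.5), given with their standard error (SE); this scale understates the change of genes near 0. Within their groups, vehicle A and mifepristone C deviated with transcript length (Spearman's rho across 13904 genes -0.44 and -0.51), with shorter transcripts higher, and the other 10 libraries ran from -0.29 to 0.47. The part of this trend in the results was not tested. The epithelial markers Cdh1, Epcam, Krt8 and Krt18 were expressed, while Aqp2 and Avpr2, which define the principal cell of the collecting duct, were at or near 0. Scnn1a, from the same marker list, was also at FPKM 1 or above in 3 or more libraries, as were 5 of the 10 markers in all. The summed level of the 10 epithelial and collecting duct markers was 633 to 672 FPKM in vehicle, 418 to 431 with NaCl, 798 to 929.5 with mifepristone and 582 to 619.6 with both. That of 6 fibroblast markers was 0.258 to 0.354, 0.240 to 0.318, 5.65 to 6.33 and 3.01 to 3.44 in the same order, in the mifepristone groups nearly all Dcn. For 6 leukocyte and macrophage markers the summed level was 10.9 to 12.7, 29.96 to 34.3, 6.62 to 7.91 and 9.85 to 11.1, in the vehicle groups mainly Cd14. With mifepristone, Cd14 fell by 1.32 ± 0.096 without and 2.50 ± 0.096 with NaCl. Cd68, the other tested marker of that list, rose by 0.33 ± 0.064 and 0.81 ± 0.064 (all called). The part of all these marker lists in the results was not tested. In such bulk samples, fewer cells of a type and less RNA per cell cannot be told apart.

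Of the 44 records, 35 passed the filter, and 9 did not: Gpx2, Gpx3, Gsta1, Gsta2, Gstm4, Gstt1, Gstt2, Gstk1 and Mgst2, all below 1 FPKM in every library. A further 5 passed only through the groups where they were high, namely Nqo1 in both NaCl groups, Gsta3 in vehicle, Gstm6 and Gstm7 in both mifepristone groups, and Mgst1 in mifepristone without NaCl. These 5 had to differ between some groups to be tested at all.

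Mifepristone without NaCl raised 17 of the 35 tested records and lowered 7, where 28.3% of all tested genes were called higher and 31.5% lower (59.7% either way). The members' median was 0.17 on the log2 scale, against -0.011 over all tested genes. With NaCl in both groups, mifepristone raised 15 and lowered 10, where 26.8% of all tested genes were called higher and 31.9% lower (58.7% either way), and the median was 0.19 against -0.034. Of the 35 records, 11 were higher in both comparisons and 6 lower in both. Only Nfe2l2 and Osgin1, among the tested members, were called higher without NaCl and lower with it. Calls in both comparisons at once were not counted over all tested genes, so these joint counts only describe the members. Because the genes were chosen with earlier results known, and 5 were tested only through groups where they are high, the counts and medians describe the members. Here and below, they are no support for the members or a branch as a set. With 59.7% of all tested genes called, a call by itself says little of a member, so the levels and the sizes of the changes are given throughout.

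Added NaCl raised 10 records and lowered 13 in vehicle cells, where 25.2% of all tested genes were called higher and 31.5% lower (56.7% either way). In mifepristone cells it raised 10 and lowered 16, where 24.5% were called higher and 34.2% lower (58.7% either way). The members' medians were -0.049 and -0.13, against -0.024 and -0.058 over all tested genes. The lowered members were 37.1% of those tested in vehicle cells and 45.7% in mifepristone cells.

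**Figure D1:**
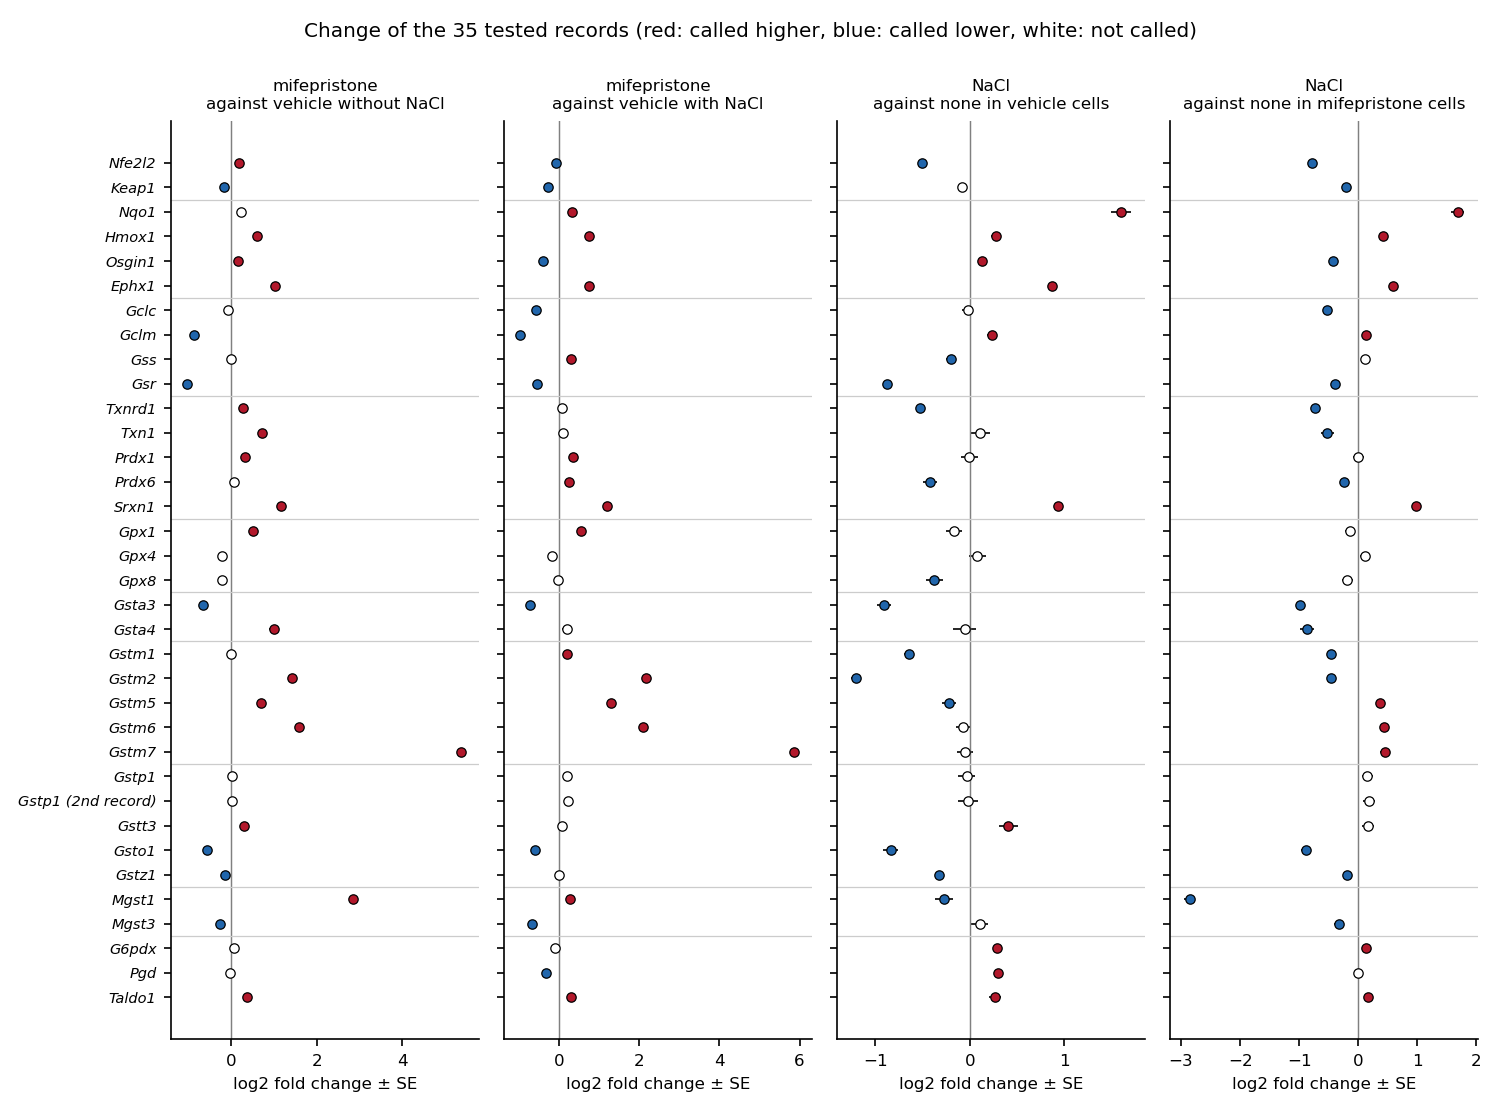
Change of the 35 tested records in the 4 comparisons, ordered by branch from regulators at the top to pentose phosphate enzymes at the bottom, with grey lines between branches. Points are log2 fold changes of FPKM + 0.5 and bars are SE, often smaller than the point; red was called higher, blue lower and white not called by limma. Gstm7 lies farthest right in both mifepristone comparisons, at 5.37 and 5.87, and Mgst1 farthest left with NaCl in mifepristone cells, at -2.85.

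The transcript of NRF2 itself fell with NaCl and changed less with mifepristone. Nfe2l2 (chromosome 2, 75675513 to 75704641, GRCm38) stood at 28.4, 28.1 and 28.0 FPKM in vehicle libraries A, B and C, at 20.1, 19.6 and 19.4 with NaCl, at 32.3, 31.7 and 32.6 with mifepristone, and at 19.0, 18.6 and 18.0 with both. The mifepristone libraries were the highest, the vehicle libraries next, and both NaCl groups lay well below, without overlap between any pair of groups compared. NaCl lowered Nfe2l2 by 0.51 ± 0.030 in vehicle cells (limma adjusted p = 1.2e-07) and by 0.78 ± 0.030 in mifepristone cells (limma adjusted p = 2.4e-09). Mifepristone raised it by 0.19 ± 0.030 without NaCl (limma adjusted p = 2.0e-04). The change by mifepristone with NaCl was -0.087 ± 0.030 (limma adjusted p = 0.026), and this call was lost when vehicle plus NaCl A or B, or mifepristone plus NaCl B or C, was left out (limma adjusted p from 0.055 to 0.10).

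Keap1, the adaptor that brings NRF2 to its ubiquitin ligase, was at 8.06, 7.77 and 8.36 FPKM in vehicle, 7.69, 7.74 and 7.33 with NaCl, 7.09, 7.21 and 7.09 with mifepristone and 6.07, 5.99 and 6.35 with both. Its highest values were in vehicle and its lowest with both agents, and the vehicle and vehicle plus NaCl libraries were close to each other without overlapping. Mifepristone lowered it by 0.17 ± 0.038 without NaCl and by 0.28 ± 0.038 with NaCl (limma adjusted p = 0.0031 and 6.4e-05). The NaCl change in vehicle cells was -0.082 ± 0.038 and was not called (limma adjusted p = 0.090). In mifepristone cells it was -0.20 ± 0.038 and was called (limma adjusted p = 9.4e-04). Of Keap1's 50-base windows, 7.78% also occur in the annotated gene Gm16754, so a small part of its reads may be shared.

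**Figure D2:**
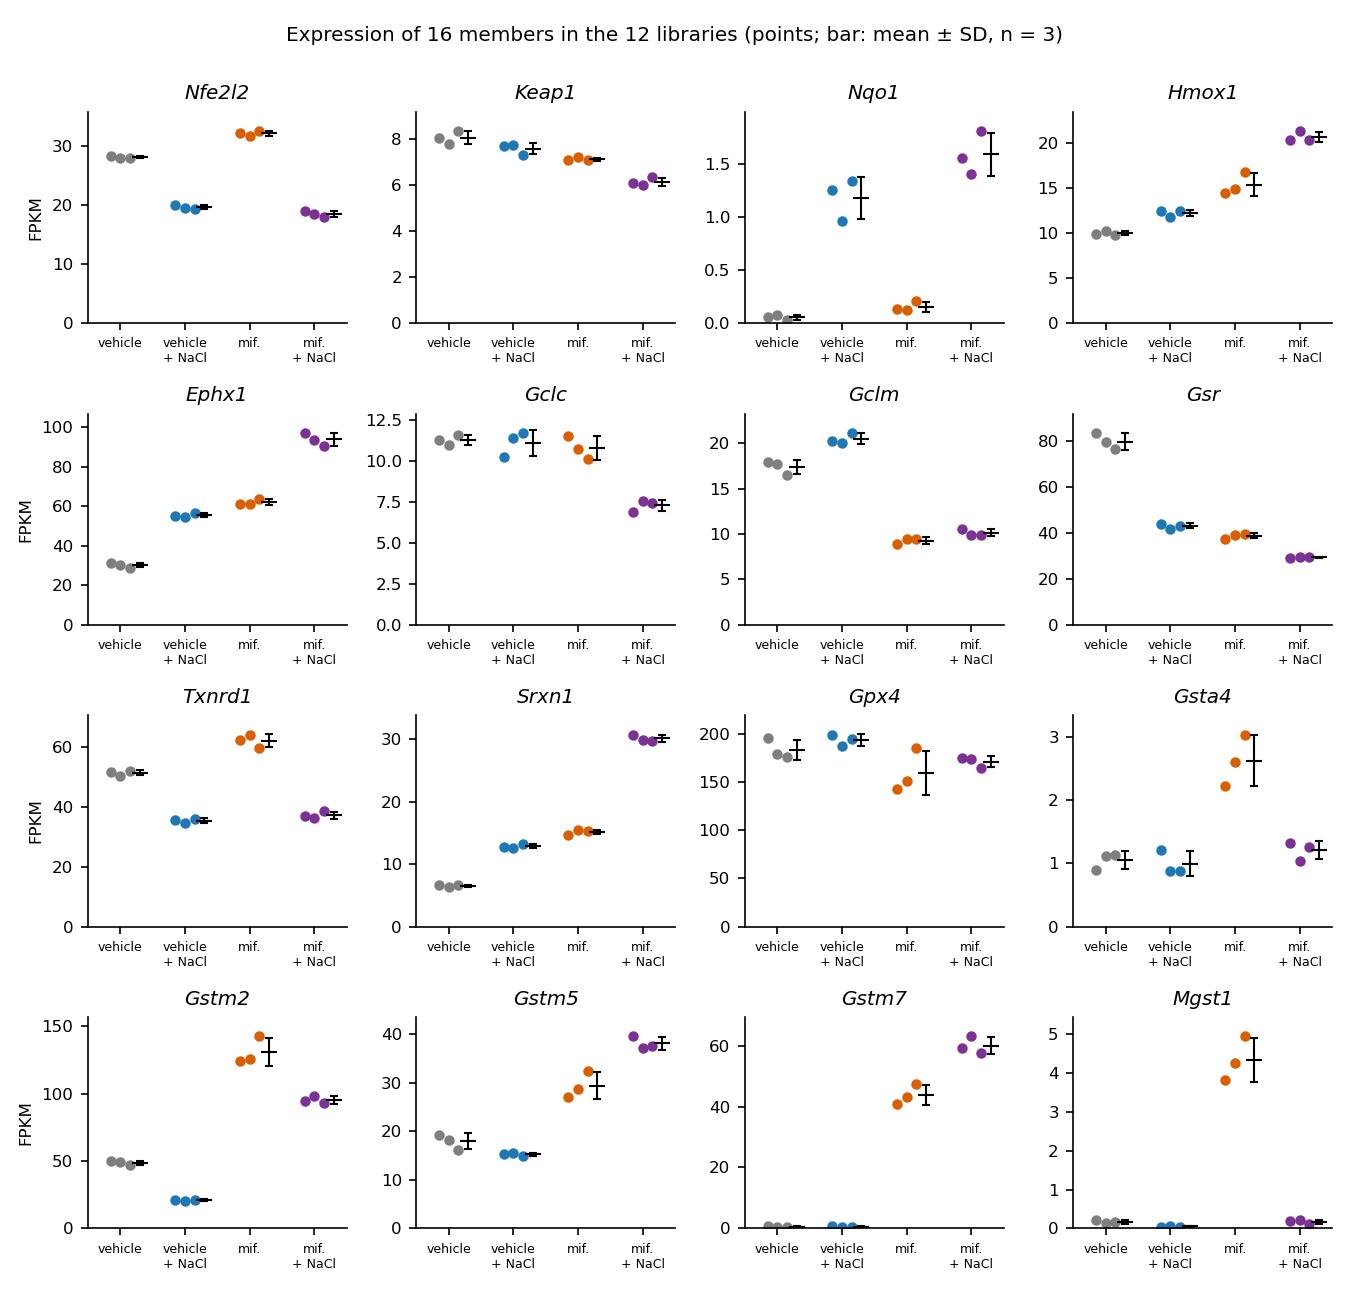
FPKM of 16 members in each of the 12 libraries (points, libraries A, B and C from left to right in each group) with the group mean and SD (bar, n = 3), on a linear axis from 0 for each gene; mif. is mifepristone. Gstm7 and Mgst1 sit near 0 in vehicle libraries, and Srxn1, Ephx1 and Hmox1 are highest with mifepristone and NaCl together.

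Of the 4 NRF2 target enzymes, all 4 were called higher with NaCl in vehicle cells and 3 in each of the other 3 comparisons, where 24.5% to 28.3% of all tested genes were called higher. Nqo1, one of the 4, was tested only because it is high with NaCl. Ephx1, the microsomal epoxide hydrolase, was at 31.1, 30.4 and 28.8 FPKM in vehicle, 55.3, 54.6 and 56.4 with NaCl, 61.2, 61.0 and 63.8 with mifepristone and 97.1, 93.7 and 90.6 with both. Every library with 1 agent lay above every vehicle library, and every library with both agents lay above all others. Mifepristone raised Ephx1 by 1.03 ± 0.041 without NaCl and by 0.75 ± 0.041 with NaCl (limma adjusted p = 2.7e-09 and 3.3e-08), which is 2.06 and 1.69 times by the ratio of mean FPKM. NaCl raised it by 0.87 ± 0.041 in vehicle cells and by 0.59 ± 0.041 in mifepristone cells (limma adjusted p = 1.8e-08 and 3.0e-07).

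Hmox1 encodes heme oxygenase, which breaks heme down to biliverdin, iron and carbon monoxide. It measured 9.88, 10.2 and 9.75 FPKM in vehicle, 12.4, 11.8 and 12.4 with NaCl, 14.4, 14.8 and 16.8 with mifepristone and 20.3, 21.3 and 20.3 with both. The groups again rose in that order without overlap. The mifepristone effects were 0.60 ± 0.052 without and 0.73 ± 0.052 with NaCl (limma adjusted p = 2.0e-06 and 3.6e-07), and NaCl raised it by 0.28 ± 0.052 and 0.42 ± 0.052 (limma adjusted p = 8.7e-04 and 4.2e-05). Its interaction, 0.14 ± 0.074, was not called (limma adjusted p = 0.19) but was called without mifepristone C, at 0.20 (limma adjusted p = 0.0089).

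Nqo1, the quinone reductase often used as a marker of NRF2 activity, was almost silent without NaCl. The vehicle libraries held 4, 5 and 2 reads of it and the mifepristone libraries 9, 9 and 16, against 87, 67 and 98 with NaCl and 111, 92 and 141 with both. Its levels were 0.0594, 0.0719 and 0.0265 FPKM in vehicle, 1.25, 0.960 and 1.34 with NaCl, 0.127, 0.123 and 0.208 with mifepristone and 1.56, 1.41 and 1.81 with both. All 6 NaCl libraries lay far above the 6 others. NaCl raised Nqo1 by 1.60 ± 0.10 in vehicle and by 1.68 ± 0.10 in mifepristone cells on the log2(FPKM + 0.5) scale (limma adjusted p = 2.5e-07 and 1.3e-07). On recovered reads with limma-voom, which adds a far smaller constant, the changes were 4.44 and 3.41. The rise with mifepristone in NaCl, 0.32 ± 0.10 (limma adjusted p = 0.021), was not called when vehicle plus NaCl B or mifepristone plus NaCl C was left out (limma adjusted p = 0.086 to 0.091). Without NaCl the mifepristone value was 0.24 ± 0.10 (limma adjusted p = 0.067), and limma-voom gave 1.50 and called it (adjusted p = 0.012). The limma value was also called without vehicle plus NaCl B, at the same 0.24 (limma adjusted p = 0.041). That library is in neither group compared, so only the p-value moved, through the spread that all groups share.

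Osgin1, an oxidative stress induced growth inhibitor, was the member of this set that turned direction. Its mean level was 16.9 ± 0.373 FPKM in vehicle, 18.6 ± 0.349 with NaCl, 19.1 ± 0.804 with mifepristone and 14.0 ± 0.390 with both (SD, n = 3). Mifepristone raised it by 0.17 ± 0.038 without NaCl and lowered it by 0.39 ± 0.038 with NaCl (limma adjusted p = 0.0023 and 3.9e-06), and the libraries with both agents lay below all others.

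Of the 4 genes of glutathione synthesis and recycling, none was called higher with mifepristone without NaCl and 2 were called lower, where 28.3% of all tested genes were higher and 31.5% lower. With NaCl in both groups 1 was higher and 3 lower, where 26.8% and 31.9% of all tested genes were so called. Gclm encodes the modifier subunit of glutamate-cysteine ligase, the enzyme of the rate-limiting step. The libraries stood at 18.0, 17.7 and 16.5 FPKM in vehicle, 20.3, 20.0 and 21.2 with NaCl, 8.85, 9.47 and 9.50 with mifepristone and 10.6, 9.92 and 9.93 with both. The 6 mifepristone libraries lay below the 6 vehicle libraries without overlap, at about the same level with and without NaCl. Mifepristone lowered Gclm by 0.87 ± 0.045 without NaCl and by 0.98 ± 0.045 with NaCl (limma adjusted p = 2.3e-08 and 7.9e-09), which is 1.87 and 2.02 times lower by the ratio of mean FPKM. NaCl raised it by 0.23 ± 0.045 in vehicle cells (limma adjusted p = 0.0011). The smaller value in mifepristone cells, 0.12 ± 0.045 (limma adjusted p = 0.034), was no longer called when either A library of these cells was left out (limma adjusted p = 0.12 to 0.13).

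Gclc encodes the catalytic subunit of the same ligase. It stood at 11.3, 11.0 and 11.6 FPKM in vehicle, 10.2, 11.4 and 11.7 with NaCl, 11.5, 10.8 and 10.1 with mifepristone and 6.89, 7.55 and 7.41 with both. Only the libraries with both agents stood apart, below all 9 others, and the other 3 groups overlapped. The change by mifepristone was -0.063 ± 0.060 without NaCl (limma adjusted p = 0.39) and -0.58 ± 0.060 with NaCl (limma adjusted p = 8.8e-06), and the interaction was -0.51 ± 0.085 (limma adjusted p = 0.0011).

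Gsr, glutathione reductase, which returns oxidized glutathione to its reduced form with NADPH, fell with each agent. Its values were 83.7, 79.5 and 76.4 FPKM in vehicle, 44.1, 41.9 and 43.2 with NaCl, 37.5, 39.1 and 39.7 with mifepristone and 29.1, 29.7 and 29.5 with both. The 4 groups were ordered in that way without overlap between them. Mifepristone lowered Gsr by 1.03 ± 0.040 without NaCl and by 0.54 ± 0.040 with NaCl (limma adjusted p = 2.5e-09 and 4.9e-07), which is 2.06 and 1.46 times. NaCl lowered it by 0.88 ± 0.040 in vehicle and by 0.39 ± 0.040 in mifepristone cells (limma adjusted p = 1.4e-08 and 8.2e-06). Gss, glutathione synthetase, was low throughout, with group means from 1.86 to 2.41 FPKM. It was called higher with mifepristone only in NaCl, at 0.30 ± 0.053 (limma adjusted p = 4.4e-04).

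Of the 5 genes of the thioredoxin branch, mifepristone raised 4 without NaCl and 3 with NaCl, and lowered none in either comparison, where 28.3% and 26.8% of all tested genes were called higher and 31.5% and 31.9% lower. Srxn1, sulfiredoxin, which repairs over-oxidized peroxiredoxins, showed the largest change of the branch. It was measured at 6.62, 6.29 and 6.63 FPKM in vehicle, 12.8, 12.6 and 13.3 with NaCl, 14.7, 15.5 and 15.2 with mifepristone and 30.7, 29.9 and 29.7 with both. The groups stepped upwards in that order without overlap. Mifepristone raised Srxn1 by 1.16 ± 0.035 without and 1.19 ± 0.035 with NaCl (limma adjusted p = 3.5e-10 and 2.3e-10). NaCl raised it by 0.93 ± 0.035 in vehicle and 0.97 ± 0.035 in mifepristone cells (limma adjusted p = 2.9e-09 and 1.5e-09). The Srxn1 interaction was 0.036 ± 0.049 and was not called (limma adjusted p = 0.60).

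Txnrd1, the cytosolic thioredoxin reductase, reduces thioredoxin with NADPH. It was at 51.7, 50.4 and 51.9 FPKM in vehicle, 35.6, 34.6 and 36.0 with NaCl, 62.2, 64.1 and 59.7 with mifepristone and 36.9, 36.2 and 38.4 with both. Both NaCl groups lay below both groups without NaCl, and mifepristone without NaCl was the highest. NaCl lowered Txnrd1 by 0.53 ± 0.037 in vehicle and 0.73 ± 0.037 in mifepristone cells (limma adjusted p = 5.1e-07 and 2.8e-08), and mifepristone raised it by 0.27 ± 0.037 without NaCl (limma adjusted p = 8.3e-05). With NaCl the mifepristone value was 0.069 ± 0.037 and was not called (limma adjusted p = 0.13).

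Among the other 3 genes of the branch, Txn1, thioredoxin itself, rose from 194 ± 18.2 to 324 ± 50.2 FPKM (mean ± SD, n = 3) with mifepristone, by 0.73 ± 0.11 (limma adjusted p = 1.1e-04). With NaCl in both groups the Txn1 difference was 0.11 ± 0.11 and was not called (limma adjusted p = 0.41), and the groups overlapped. Prdx1, an abundant cytosolic peroxiredoxin, rose by 0.34 ± 0.092 and 0.35 ± 0.092 in the pair of mifepristone comparisons (limma adjusted p = 0.0084 and 0.0074) and was not called in either NaCl comparison. Prdx6, which reduces phospholipid hydroperoxides, fell with NaCl by 0.42 ± 0.070 in vehicle and 0.24 ± 0.070 in mifepristone cells (limma adjusted p = 4.2e-04 and 0.012). Mifepristone C, which has the length trend, was the highest library of its group for Txn1 (382 against 291 and 299.8 FPKM) and Prdx1 (232 against 182 and 187). The Prdx6 rise with mifepristone in NaCl, 0.24 ± 0.070 (limma adjusted p = 0.013), was lost without vehicle plus NaCl B (0.21, limma adjusted p = 0.052). The Prdx6 interaction, 0.18 ± 0.099, was not called (limma adjusted p = 0.20) but was called without mifepristone C, at 0.27 (limma adjusted p = 0.0055).

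Of the 5 glutathione peroxidases, 3 were tested. Gpx1, the cytosolic enzyme, was the one called with mifepristone, and it stood at 35.5 ± 2.61 FPKM in vehicle, 31.5 ± 1.09 with NaCl, 50.8 ± 7.18 with mifepristone and 45.9 ± 0.487 with both, and rose by 0.50 ± 0.085 and 0.54 ± 0.085 without and with NaCl (limma adjusted p = 3.7e-04 and 2.3e-04). NaCl values of Gpx1 were -0.17 ± 0.085 and -0.13 ± 0.085 and were not called (limma adjusted p = 0.12 and 0.20). Without mifepristone A, the value in mifepristone cells was -0.22 and was called (limma adjusted p = 0.041). The value in vehicle cells was called without mifepristone C (limma adjusted p = 0.017). It stayed at -0.17, since mifepristone C is in neither of the groups compared, and only the p-value moved.

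Gpx4, which reduces lipid hydroperoxides in membranes, was the most abundant peroxidase transcript per length. Its libraries held 196, 179 and 176 FPKM in vehicle, 199.7, 188 and 195 with NaCl, 143, 151 and 186 with mifepristone and 176, 174 and 165 with both. The mifepristone libraries were spread from the lowest value of all to one inside the vehicle range. None of its 5 contrasts was called, with a mifepristone value of -0.21 ± 0.086 without NaCl (limma adjusted p = 0.059) and -0.18 ± 0.086 with NaCl (limma adjusted p = 0.098). Without mifepristone C, one of the libraries with the length trend, the first became -0.32 and the second stayed at -0.18. Both were then called (limma adjusted p = 4.4e-04 and 0.0083), as was the NaCl value in mifepristone cells (0.22, limma adjusted p = 0.0050). Mifepristone C is in neither group of the second comparison, where only the p-value moved, through the spread that all groups share. Of the Gpx4 windows of 50 bases, 34.7% also occur in other annotated transcripts, mostly of the pseudogene Gpx4-ps2, so part of its reads cannot be assigned with certainty. Gpx8, an enzyme of the endoplasmic reticulum, fell with NaCl in vehicle cells, by 0.37 ± 0.095 (limma adjusted p = 0.0060). Its mifepristone value without NaCl, -0.21 ± 0.095 (limma adjusted p = 0.074), was called without vehicle C or without mifepristone C (limma adjusted p = 0.034 and 0.0058).

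The glutathione transferases, which couple glutathione to electrophiles, held the largest changes of all members, led by Gstm7 of the mu class and the microsomal Mgst1. Of the 14 tested transferase records, mifepristone raised 7 and lowered 4 without NaCl, and raised 6 and lowered 3 with NaCl, where 28.3% and 26.8% of all tested genes were called higher and 31.5% and 31.9% lower. NaCl in vehicle cells raised 1 and lowered 7, where 25.2% of all tested genes were higher and 31.5% lower. Among the 14, Gstm6, Gstm7 and Mgst1 passed the filter only through mifepristone groups and Gsta3 only through vehicle. These counts are therefore no support for the transferases as a set. The mu class is encoded by neighbouring genes on chromosome 3, and 5 of its 6 listed members were tested: with mifepristone 4 were called higher without NaCl and all 5 with NaCl. Of these, Gstm6 and Gstm7 were tested only because they are high with mifepristone, so the count is no support for the class.

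Gstm7 (chromosome 3, 107926334 to 107931817, minus strand, GRCm38) was low in vehicle cells and far higher with mifepristone. It measured 0.649, 0.488 and 0.578 FPKM in vehicle and 0.601, 0.417 and 0.595 with NaCl, against 41.0, 43.3 and 47.6 with mifepristone and 59.4, 63.1 and 57.6 with both. The 6 vehicle libraries all lay below 1 FPKM and the 6 mifepristone libraries all at 41.0 or more. In reads, this was 30 to 45 per vehicle library and 2987 to 4620 per mifepristone library. The ratio of mean FPKM was 76.9 without NaCl and 112 with NaCl, and on the log2(FPKM + 0.5) scale the changes were 5.37 ± 0.084 and 5.87 ± 0.084 (limma adjusted p = 4.2e-12 and 2.4e-12). NaCl alone left a difference of -0.049 ± 0.084 (limma adjusted p = 0.64), while in mifepristone cells it raised Gstm7 by 0.45 ± 0.084 (limma adjusted p = 8.4e-04). Of its 50-base windows, 0.532% occur in another transcript, so shared reads are a small part of what was counted.

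Gstm2, farther along the same cluster, was already expressed in vehicle cells. It stood at 49.8, 49.1 and 47.1 FPKM in vehicle, 20.9, 20.3 and 21.4 with NaCl, 124, 126 and 143 with mifepristone and 94.4, 98.5 and 93.0 with both. Mifepristone libraries lay above vehicle libraries at either salt level, and NaCl libraries lay below their partners at either drug level, without overlap. Mifepristone raised Gstm2 by 1.41 ± 0.053 without and 2.17 ± 0.053 with NaCl (limma adjusted p = 2.0e-09 and 7.1e-11), which is 2.69 and 4.57 times, while NaCl lowered it by 1.21 ± 0.053 in vehicle and 0.45 ± 0.053 in mifepristone cells (limma adjusted p = 1.1e-08 and 2.5e-05).

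Gstm5, at the other end of the cluster, was found at 19.3, 18.3 and 16.1 FPKM in vehicle, 15.4, 15.5 and 14.8 with NaCl, 27.0, 28.7 and 32.4 with mifepristone and 39.6, 37.2 and 37.6 with both. The libraries with both agents were the highest and those with NaCl alone the lowest. Mifepristone raised Gstm5 by 0.70 ± 0.073 and 1.29 ± 0.073 without and with NaCl (limma adjusted p = 9.0e-06 and 5.2e-08). The NaCl change in vehicle cells, -0.22 ± 0.073 (limma adjusted p = 0.023), was lost without vehicle A, vehicle B or vehicle plus NaCl C (limma adjusted p = 0.069 to 0.091). Gstm5 overlaps the antisense gene 4933431E20Rik, which was itself 1.20 higher without NaCl and 1.70 higher with NaCl, and whether strand was used in counting is not given in the sources used here. The overlap covers 9.44% of the Gstm5 windows.

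Gstm6 and Gstm1 mark the ends of the range of abundance among the tested mu genes. Gstm6 held 4, 7 and 8 reads in vehicle and 2, 5 and 4 in vehicle plus NaCl, against 103, 104 and 134 with mifepristone and 154, 150 and 189 with both. It rose by 1.58 ± 0.073 and 2.09 ± 0.073 on the log2(FPKM + 0.5) scale (limma adjusted p = 1.1e-08 and 1.0e-09), or by 4.05 and 5.40 with limma-voom on reads. Gstm1, by contrast, was the most abundant mu transcript at 184 ± 7.79 FPKM in vehicle and 185 ± 5.15 with mifepristone, a difference of 0.0089 ± 0.046 (limma adjusted p = 0.88). With NaCl the means were 117 ± 2.76 and 134 ± 4.48 FPKM, with a mifepristone effect of 0.20 ± 0.046 (limma adjusted p = 0.0035), and NaCl lowered it by 0.65 ± 0.046 in vehicle cells (limma adjusted p = 5.1e-07). Gstm1 shares 18.9% of its windows with other transcripts. Gstm4, the last gene of the cluster, had 3 reads over all 12 libraries together.

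**Figure D3:**
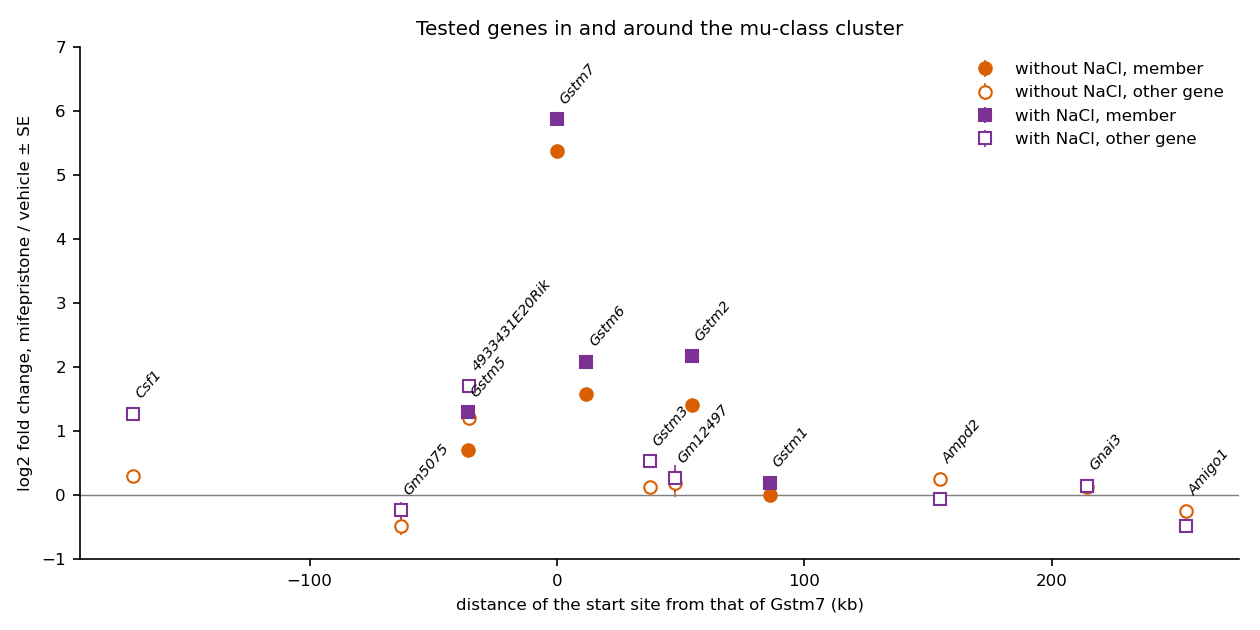
Log2 fold change with mifepristone (y axis, ± SE) of each tested gene in and around the mu-class cluster against the distance of its start site from that of Gstm7 (x axis, kb), without NaCl (circles) and with NaCl (squares); filled symbols are members. Gstm7 stands at 5.37 and 5.87, its neighbours Gstm6 and Gstm2 between 1.41 and 2.17, and Gstm1 at 0.0089 and 0.20.

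The rise was uneven along the cluster, whose listed genes span 149 kb. Gstm7 changed most, Gstm6 and Gstm2 changed less, and Gstm3, which lies between Gstm6 and Gstm2 and was not among the 43 genes, changed by 0.13 ± 0.084 without NaCl (limma adjusted p = 0.21) and by 0.53 ± 0.084 with NaCl (limma adjusted p = 2.6e-04). Of the other tested genes that lie within 150 kb of the cluster, 4933431E20Rik, at 1.20 without NaCl, overlaps the cluster's edge at Gstm5. The other 5 ran from -0.49 (Gm5075) to 0.29 (Csf1) without NaCl. With NaCl they ran from -0.48 (Amigo1) to 1.27 ± 0.047 (Csf1, limma adjusted p = 1.6e-09), where Gstm5 in the cluster stood at 1.29. The pseudogene Gm12497, inside the span, was not called, at 0.18 ± 0.21 without and 0.26 ± 0.21 with NaCl (limma adjusted p = 0.47 and 0.31).

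The upstream sequences of 3 mu genes are shown because these genes lie in 1 cluster and rose by very different factors, and those of Gclm and Gsta3 because both fell with mifepristone. All are from RefSeq on GRCm38.p6, read 5′ to 3′ on the gene's own strand and cut to the bases upstream of the annotated start; capitals mark a match, on either strand, to TGACNNNGC, the core of the antioxidant response element, or to GTTAAT, part of the site known for the family of the mutated factor.
Gstm7, chr3:107931818-107932067, minus strand: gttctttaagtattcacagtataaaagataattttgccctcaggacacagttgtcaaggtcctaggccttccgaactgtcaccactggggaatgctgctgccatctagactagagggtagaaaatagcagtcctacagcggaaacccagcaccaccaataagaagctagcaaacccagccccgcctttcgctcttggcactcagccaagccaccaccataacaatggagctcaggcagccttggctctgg
Gstm2, chr3:107986454-107986670, minus strand: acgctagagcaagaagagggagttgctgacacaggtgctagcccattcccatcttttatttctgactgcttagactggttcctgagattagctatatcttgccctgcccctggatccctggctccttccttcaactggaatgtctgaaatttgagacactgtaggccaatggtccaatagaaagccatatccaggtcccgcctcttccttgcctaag
Gstm5, chr3:107895604-107895820, plus strand: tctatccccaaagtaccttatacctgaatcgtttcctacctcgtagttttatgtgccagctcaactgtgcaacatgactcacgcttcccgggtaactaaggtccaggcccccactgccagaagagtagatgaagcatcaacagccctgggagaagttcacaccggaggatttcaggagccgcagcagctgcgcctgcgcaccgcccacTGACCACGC
Gclm, chr3:122245307-122245556, plus strand: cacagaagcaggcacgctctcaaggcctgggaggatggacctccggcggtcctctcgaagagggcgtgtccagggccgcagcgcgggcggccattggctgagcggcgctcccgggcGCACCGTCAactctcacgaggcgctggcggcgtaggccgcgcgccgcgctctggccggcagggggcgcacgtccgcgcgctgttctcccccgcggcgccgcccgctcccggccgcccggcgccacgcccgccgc
Gsta3, chr1:21240335-21240584, plus strand: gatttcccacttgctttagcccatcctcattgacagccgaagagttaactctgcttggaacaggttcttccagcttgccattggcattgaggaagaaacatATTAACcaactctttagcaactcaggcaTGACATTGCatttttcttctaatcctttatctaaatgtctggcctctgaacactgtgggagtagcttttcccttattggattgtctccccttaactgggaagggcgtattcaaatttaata

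Gstm5 and Gclm each hold 1 match to TGACNNNGC, Gsta3 holds 1 match to each motif, and the stretches of Gstm7 and Gstm2 hold none. RefSeq lists a further start for Gstm7 inside the gene, and the 300-base window around that start holds a TGACNNNGC match. Over the members, 37 of the 43 genes have a window in the RefSeq table (250 bases before to 50 after each start), and 11 of these 37 genes (29.7%) hold TGACNNNGC in at least 1 window, against 14.0% of all 27025 genes in the table. Counted by window, this is 21.6% of 51 against 12.4% of 32851. GTTAAT occurs in 2 of the 37 genes (5.41%), Gsta3 and Txnrd1, against 8.24% of all genes. The 11 genes with TGACNNNGC are Gsta3, Nfe2l2, Srxn1, Gstm5, Gstm7, Gclm, Prdx1, Pgd, Mgst1, Txnrd1 and G6pdx. They include members that rose, fell or were not called with mifepristone. The matches describe these letters in these windows and are not measured binding sites.

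The authors' deposited tables mark genes that have a nearby peak of chromatin immunoprecipitation, without giving positions. In them, 15 of the 35 tested member records (42.9%) carry the mark, against 28.4% of all tested genes. Marked members include Gsr, Gclm, Gsta3, Keap1, Nfe2l2, Txnrd1, Gsta4 and Gstm5. By the authors' deposited table for mifepristone without NaCl, 5 members have an adjusted p under 0.05, with log2 fold changes of 6.11 for Gstm7, 4.48 for Mgst1, 3.60 for Gstm6, 1.42 for Gstm2 and 1.21 for Srxn1. None of these 5 carries the mark in the authors' deposited table, while Gsta4, which does, stands there at 1.26 without passing that threshold. Since the smallest log2 fold change with an adjusted p below 1 in that table is 1.07 in size, the authors' test may ask for a minimum fold, and its calls are not comparable in number with those of limma here.

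Mgst1, a membrane-bound transferase of the endoplasmic reticulum and mitochondria (chromosome 6, 138140316 to 138156755, GRCm38), showed the strongest dependence on both agents. It measured 0.218, 0.133 and 0.153 FPKM in vehicle, 0.0445, 0.0663 and 0.0421 with NaCl, 3.82, 4.27 and 4.95 with mifepristone and 0.184, 0.213 and 0.109 with both. The 3 mifepristone libraries without NaCl stood far above the 9 others, which all lay at 0.218 FPKM or less. Mifepristone without NaCl raised Mgst1 by 2.85 ± 0.10 (limma adjusted p = 7.6e-10), a ratio of mean FPKM of 25.9, and NaCl lowered it in mifepristone cells by 2.85 ± 0.10 (limma adjusted p = 9.0e-10), to a level 25.8 times lower. The interaction was -2.58 ± 0.14 (limma adjusted p = 3.6e-07), and it is the 1 member whose interaction the authors' deposited table also calls, at -2.99 with an adjusted p of 0.0485. The small values in the low groups, 0.28 ± 0.10 for mifepristone in NaCl and -0.28 ± 0.10 for NaCl in vehicle cells (limma adjusted p = 0.028 and 0.029), rest on 4 to 19 reads per library; the first was lost without A or C of vehicle plus NaCl or A or B of mifepristone plus NaCl, and the other without vehicle A or A or C of vehicle plus NaCl (limma adjusted p = 0.067 to 0.10).

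Gsta4, the alpha-class enzyme that takes 4-hydroxynonenal from lipid peroxidation, rose in the same group. It was at 0.892, 1.1205 and 1.14 FPKM in vehicle, 1.22, 0.883 and 0.885 with NaCl, 2.23, 2.61 and 3.04 with mifepristone and 1.32, 1.04 and 1.25 with both. The mifepristone libraries without NaCl lay above all others, and the other 3 groups overlapped. Mifepristone raised Gsta4 by 1.01 ± 0.12 without NaCl (limma adjusted p = 2.5e-05), and with NaCl the value was 0.19 ± 0.12 and was not called (limma adjusted p = 0.18). The other tested alpha gene, Gsta3, went the opposite way: 1.72 ± 0.128 FPKM in vehicle, 0.677 ± 0.0214 with NaCl, 0.905 ± 0.0921 with mifepristone and 0.208 ± 0.0346 with both. It was lower by 0.66 ± 0.071 and 0.74 ± 0.071 with mifepristone and by 0.91 ± 0.071 and 0.99 ± 0.071 with NaCl, with each group apart from those it was compared with (limma adjusted p = 1.1e-05, 4.3e-06, 1.1e-06 and 4.2e-07). Gsta1 and Gsta2 reached at most 0.411 and 0.185 FPKM in any library, and share 90.5% and 49.8% of their windows with other transcripts.

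Among the remaining transferases, Gsto1, an omega-class enzyme, fell in all 4 comparisons, from 34.0 ± 3.71 FPKM in vehicle to 18.7 ± 0.825 with NaCl, 22.8 ± 1.89 with mifepristone and 12.1 ± 0.530 with both. Its changes ran from -0.56 for mifepristone without NaCl to -0.88 for NaCl in mifepristone cells (limma adjusted p = 9.8e-05, 5.2e-05, 5.5e-06 and 2.7e-06 in the order of the comparisons). Gstp1, the pi-class enzyme and the most abundant transferase record in vehicle cells, was not called in any comparison in either of its records; its first record stood at 197 ± 13.7 FPKM in vehicle and 200.0 ± 30.6 with mifepristone, a difference of 0.012 ± 0.091 (limma adjusted p = 0.92). With NaCl the mifepristone value of this record was 0.20 ± 0.091 (limma adjusted p = 0.087), and it was called without mifepristone A or C (limma adjusted p = 0.037 and 0.0091). These libraries are in neither group compared, so the value stayed at 0.20 and only the p-value moved. Of its windows, 33.7% also occur in Gstp2 or a pseudogene, so reads may be split between the records. Gstz1, the zeta-class enzyme of tyrosine breakdown, fell with NaCl by 0.33 ± 0.031 and 0.19 ± 0.031 in vehicle and mifepristone cells (limma adjusted p = 5.5e-06 and 3.5e-04). Gstt3, of the theta class, was higher with NaCl in vehicle cells by 0.41 ± 0.10 (limma adjusted p = 0.0049); its value with mifepristone, 0.30 ± 0.10 (limma adjusted p = 0.021), was lost without vehicle B, mifepristone A or mifepristone C (limma adjusted p = 0.053 to 0.085). Mgst3 fell with mifepristone in NaCl by 0.68 ± 0.090 (limma adjusted p = 5.8e-05); the fall without NaCl, -0.25 ± 0.090 (limma adjusted p = 0.032), was lost in 5 of 12 fits without 1 library (any vehicle library, mifepristone A or mifepristone B, limma adjusted p = 0.054 to 0.13).

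**Figure D4:**
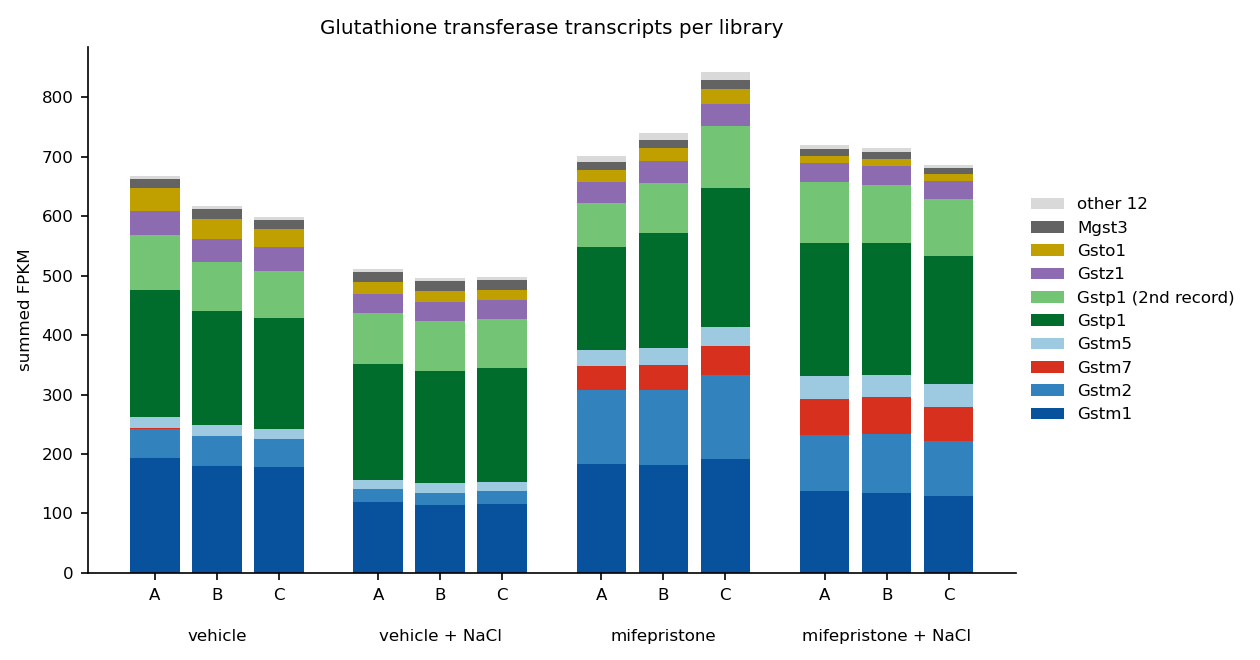
Summed FPKM of the 21 transferase records in each library (bars from 0, stacked by gene; A, B and C are libraries of a group). Gstm7 (red) is visible only in the 6 mifepristone libraries, and the total runs from 496 in vehicle plus NaCl to 843 in mifepristone.

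Added over the 21 records, transferase FPKM came to 628 ± 36.0 in vehicle, 501 ± 8.39 with NaCl, 761 ± 73.0 with mifepristone and 707 ± 17.4 with both (mean ± SD, n = 3). The mu class made up 40.0% ± 0.624 of this sum in vehicle, 30.6% ± 0.209 with NaCl, 51.4% ± 2.22 with mifepristone and 46.6% ± 0.316 with both. Groups did not overlap in the mu share. Gstm7 alone went from 0.0909% ± 0.0102 of transferase FPKM in vehicle to 5.78% ± 0.118 with mifepristone and 8.49% ± 0.302 with both. Mifepristone C, which has the length trend, had the highest sum of its group, 843 against 701 and 739.7.

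The pentose phosphate enzymes, which supply NADPH for glutathione and thioredoxin reductases, changed little. All 3 rose with NaCl in vehicle cells, where 25.2% of all tested genes were called higher. The rises were 0.29 ± 0.037 for G6pdx, 0.29 ± 0.035 for Pgd and 0.26 ± 0.063 for Taldo1 (limma adjusted p = 5.9e-05, 3.0e-05 and 0.0042). Of these, Taldo1, transaldolase, rose with mifepristone, by 0.38 ± 0.063 without and 0.29 ± 0.063 with NaCl (limma adjusted p = 3.2e-04 and 0.0021). Pgd fell with mifepristone in NaCl by 0.33 ± 0.035 (limma adjusted p = 7.6e-06). In mifepristone cells the NaCl values were 0.13 ± 0.037 for G6pdx and 0.17 ± 0.063 for Taldo1 (limma adjusted p = 0.013 and 0.034). The G6pdx call was lost without mifepristone plus NaCl B (limma adjusted p = 0.057), and the Taldo1 call without A or B of mifepristone or of mifepristone plus NaCl (limma adjusted p = 0.093 to 0.13).

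Whether the mifepristone effect differed with NaCl was tested by the interaction, the difference of the pair of mifepristone effects. It was called positive for 8 of the 35 records and negative for 11, where 13.6% of all tested genes were positive and 17.5% negative (31.1% either way). Over all tested genes this was 1915 positive and 2459 negative, a split that became 2469 and 1983 with scaling to total reads, and 3148 genes were positive without mifepristone C. All 5 tested mu genes were positive, from 0.19 for Gstm1 to 0.75 for Gstm2, so their mifepristone effect was larger with NaCl. Among them, Gstm6 and Gstm7 passed the filter only through the mifepristone groups, so the count is no support for the class. The Gstm1 value (limma adjusted p = 0.04998) was lost in 9 of 12 fits without 1 library; it held without vehicle C, mifepristone C and mifepristone plus NaCl C. Negative values were led by Mgst1, Gsta4, Txn1, Osgin1 and Gclc, at -2.58, -0.81, -0.63, -0.56 and -0.51. For Gsr the interaction was 0.49 ± 0.057 (limma adjusted p = 9.9e-05), so its fall with mifepristone was smaller in NaCl.

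**Figure D5:**
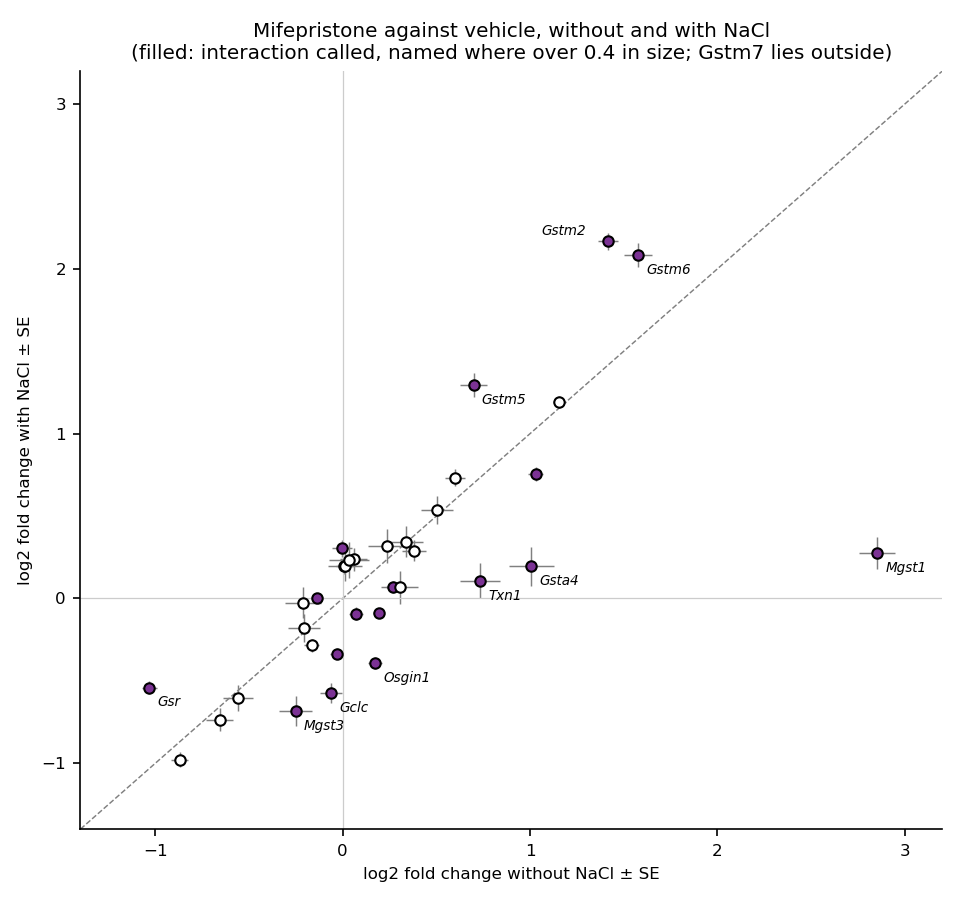
Mifepristone effect on the tested records other than Gstm7, which lies outside the axes, without NaCl (x axis) and with NaCl (y axis), as log2 fold changes with SE bars; the dashed line marks equal effects and filled points have a called interaction. Mgst1, Gsta4 and Txn1 lie far to the right of the line, Gstm2, Gstm6 and Gstm5 above it, and Srxn1 (open, at 1.16 and 1.19) on it.

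Outside the 43 genes, 68 other genes of the same pathways were listed. The table held all but 3 of them, in 66 records because Gstp2 has 2, and 52 records were tested. Mifepristone raised 16 of these (30.8%) and lowered 19 (36.5%) without NaCl, close to the 28.3% and 31.5% of all tested genes. With NaCl it raised 17 (32.7%) and lowered 18 (34.6%), where 26.8% and 31.9% of all tested genes were called. NaCl raised 13 (25.0%) and lowered 24 (46.2%) in vehicle cells, against 25.2% and 31.5% of all tested genes, and raised 10 (19.2%) and lowered 24 (46.2%) in mifepristone cells, against 24.5% and 34.2%. Among the genes named, the largest change was that of Me1, the cytosolic malic enzyme and an NADPH source, with 13.7, 13.2 and 12.1 FPKM in vehicle, 234, 217 and 225 with NaCl, 11.4, 11.4 and 11.9 with mifepristone and 358, 329 and 338 with both. All 6 NaCl libraries lay at 217 FPKM or more and the others at 13.7 or less. NaCl raised Me1 by 4.06 ± 0.052 in vehicle and 4.83 ± 0.052 in mifepristone cells (limma adjusted p = 6.0e-13 and 1.5e-13). Akr1b8, an aldose reductase relative, rose with NaCl by 0.95 ± 0.053 and 1.58 ± 0.053 (limma adjusted p = 7.6e-08 and 9.6e-10).

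Of the transporters that export glutathione conjugates, Abcc4 rose with NaCl by 1.38 ± 0.080 and 1.69 ± 0.080 in vehicle and mifepristone cells, while Abcc3 fell by 0.92 ± 0.076 and 1.15 ± 0.076 (limma adjusted p = 1.1e-07, 1.6e-08, 1.9e-06 and 2.4e-07). With mifepristone without NaCl the directions were the other way round, at -0.63 ± 0.080 for Abcc4 and 0.99 ± 0.076 for Abcc3 (limma adjusted p = 4.5e-05 and 7.0e-07). Of 12 other tested thioredoxin, peroxiredoxin and glutaredoxin genes, 8 (66.7%) were called lower with NaCl in vehicle cells and 1 (8.33%) higher, where 31.5% of all tested genes were lower and 25.2% higher. The falls included Txnrd3 at -1.43 ± 0.053, Txnip, the thioredoxin-binding protein, at -1.10 ± 0.069, the peroxiredoxin Prdx4 of the endoplasmic reticulum at -1.10 ± 0.10, and Txnrd2, the mitochondrial reductase, at -1.01 ± 0.057 (limma adjusted p = 2.7e-09, 2.1e-07, 4.4e-06 and 7.8e-08). With Txnrd1, all 3 thioredoxin reductase genes were thus lower with NaCl. With mifepristone without NaCl Txnrd3 and Txnrd2 fell, by 0.98 ± 0.053 and 0.71 ± 0.057 (limma adjusted p = 3.6e-08 and 9.3e-07), where Txnrd1 rose.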

How the data were processed

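Poly(A) RNA libraries of IMCD3 subclone 53a cells, 3 in each of 4 groups, were made with a TruSeq kit, per the labels. The authors deposited FPKM values per gene and library. Further tables that the authors deposited give, per the file headers, each gene's mean signal (size-factor scaled), the log2 fold change and an adjusted p-value for each comparison, and marks of nearby peaks. The submitters' processing notes name Trimmomatic 0.32, STAR 2.4.2a, SAMtools 1.0, DESeq2 1.12.3 and GRCm38 (mm10), with no roles. Which counter, annotation and strand setting were used is not given in the sources used here. The 6 Control columns match sample titles by name; the 6 named for the mutant were taken as mifepristone libraries, from the NaCl part, the letter and knowledge of the study. The number of columns without a sample was 0.

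Whole reads were recovered from FPKM and the authors' mean signal (100.0% of values whole within 0.05). The library totals, 41940955 to 49270776, are these reads and leave out reads assigned to no gene. Genes with FPKM 1 or more in 3 or more of the 12 libraries were tested on log2(FPKM + 0.5) in limma 3.58.1 under R 4.3.3 (empirical Bayes with trend and robust settings), with 4 group means, 8 residual degrees of freedom and Benjamini-Hochberg adjustment over 14044 genes. The test was tried on simulated data. Loci come from GENCODE M21, promoters from RefSeq (GRCm38.p6). Results were recomputed with other pseudocounts, filters, thresholds and scalings, with library weights, with a replicate block, with limma-voom (TMM factors) on recovered reads, and with libraries left out; voom called 4162 genes higher and 4346 lower for mifepristone without NaCl. Scaling over tested genes and to total reads were added after seeing the data.

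The members and lists were chosen with earlier results of these data known. Values in every library are given for Nfe2l2, Keap1, Nqo1, Hmox1, Gclc, Gclm, Srxn1, Txnrd1, Gsr and Gpx4, and for each further member with a mean FPKM of at least 1 that was called with at least a 2-fold change in a pairwise comparison (16 in all). Other pathway genes were named by the same fold and level, at most 4 a list (8 in all). Gstm3, 4933431E20Rik, Gm12497, Gm5075, Csf1 and Amigo1 were named for their place in or near the mu cluster, after their values were seen. Tables were handled with Python 3.11.15 and pandas 2.3.3.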

Additional observations from a re-analysis of the deposited data

Results flagged for a closer look

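The mifepristone effect differed between cells with and without NaCl, by a limma interaction test over all 14044 genes, for 19 of the 35 tested records. Of all tested genes, 31.1% were called in this test. Among the 19, Mgst1 passed the filter only through mifepristone without NaCl, and Gstm6 and Gstm7 only through both mifepristone groups. On the log2 scale (effect with NaCl minus effect without), the positive values were 0.75 for Gstm2, 0.60 for Gstm5, 0.51 for Gstm6, 0.50 for Gstm7, 0.49 for Gsr, 0.31 for Gss, 0.19 for Gstm1 and 0.14 for Gstz1. The negative values were -2.58 for Mgst1, -0.81 for Gsta4, -0.63 for Txn1, -0.56 for Osgin1, -0.51 for Gclc, -0.43 for Mgst3, -0.30 for Pgd, -0.28 for Nfe2l2, -0.28 for Ephx1, -0.20 for Txnrd1 and -0.16 for G6pdx. When 1 library was left out, the call was lost in 9 of 12 fits for G6pdx, 8 for Gstz1 and 4 for Mgst3 (limma adjusted p between 0.051 and 0.088), besides Gstm1.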

How the results depend on the processing

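Counts of members called were within 1.5 times of those reported in 257 of 258 recounts; the exception was 5 members with a positive interaction, against 8, where a mean FPKM of at least 5 was required, which tests fewer members. Of 2049 alternative values of the named members, 1958 kept direction and side of the threshold, 29 passed it, 43 lost it and 19 reversed. For these, the cause was not tested. Under quantile normalization the reversed values were -0.015 (Nqo1) and 0.0052 (Gpx4) for mifepristone without NaCl, -5.7e-04 (Mgst1, the 1 reversed value that had been called) for mifepristone with NaCl, and -0.085 for the Gpx4 interaction. With library weights they were 0.042 for Gclc in mifepristone without NaCl, and 0.040 for Gclc and 0.072 for Gstm7 in NaCl against none in vehicle cells. In that last comparison Gclc was also 0.0039 with scaling over tested genes and 0.0011 with limma-voom, and ran from -0.061 to 0.033 with 1 library left out (above 0 without vehicle plus NaCl A). Gstm7 was 0.0026 without vehicle A, also when mifepristone C was dropped as well, and ran from -0.11 to 0.038 with 1 library left out (highest without vehicle plus NaCl B). The Nqo1 interaction was -0.32 with a pseudocount of 0.1, -1.03 with limma-voom and ran from -0.0203 (without vehicle plus NaCl B) to 0.15 with 1 library left out; that of Gpx4 ran from -0.048 to 0.14, below 0 without vehicle A, mifepristone A or mifepristone B. The share of member genes with a promoter motif was 56.8% with the looser core TGANNNNGC, against 45.0% of all genes.

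Scaling to total reads moved the split of all tested genes for NaCl in vehicle cells to 2936 higher and 5180 lower (from 3541 and 4424), for mifepristone with NaCl to 4212 and 4000 (from 3766 and 4474), and for the interaction to 2469 and 1983 (from 1915 and 2459). The deposited FPKM already had median-ratio scaling, so that alternative left every value as it was. Over all tested genes, the interaction was called positive for 1915 and negative for 2459, against 3377 and 3779 with library weights, 1144 and 1474 at an adjusted p under 0.01, 985 positive under the stricter filter (mean FPKM 5), and 3148 positive without mifepristone C. Genes called higher with mifepristone in NaCl (3766) were 6088 unfiltered and 2310 at a mean FPKM of 5 or more, and those higher with NaCl in mifepristone cells (3440) were 5876 and 2026, filters that change how many genes are tested. Leaving out 1 library at a time lost 15 and gained 19 calls over 175 member comparisons.

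Deviations from the group mean correlated from -0.50 to 0.29 between libraries of the same replicate letter and from -0.44 to 0.61 between others. The highest value was that of vehicle A with mifepristone C, the libraries with the length trend. This trend enters the correlations, so they cannot decide whether the letters pair the libraries. With the letter as a replicate block, 17 members were called higher and 6 lower for mifepristone without NaCl, 14 and 10 with NaCl, 10 and 12 for NaCl in vehicle cells, 8 and 16 in mifepristone cells, and 6 and 9 for the interaction.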
